A study of Mus musculus with 16 samples.

Results

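The posterior section of the mouse gut tube at E8.75 was compared with the section next to it, the midgut-posterior section, across all genes. The comparison takes the 2 libraries titled as the posterior gut tube and the 2 titled as mid gut to posterior, 4 of the 16 libraries of the series. It asks how RNA levels change over the last step along the tube, from the midgut to the hindgut and tail end. All 4 libraries hold polyadenylated RNA of bulk tissue from embryos at the 13-somite stage, obtained by natural mating. The labels describe gut tubes freed from the torso with needles after a short pancreatin and trypsin treatment on ice, with heads and extraembryonic membranes taken off. For single-cell gut tubes the labels name embryos with 1 copy of an Afp-GFP transgene. Genotype, strain, the place of the cuts and the number of embryos behind each of these 4 libraries are not stated in those labels. Replicates are called so only by number, so p-values measure only how far libraries of a group spread, which may be technical. That spread was pooled over the 8 groups of all 16 libraries, not taken from these 4 alone.

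In a mouse embryo of this age the gut tube is an endodermal epithelium in a thin coat of mesoderm, open to the yolk sac at the midgut. Its tail end lies against the tail bud, a pool of progenitors that lengthens the body and gives rise to spinal cord and paraxial mesoderm. Wnt and FGF signals and Cdx proteins are active at that end, where Hox genes come on in the order of their place in each cluster, while retinoic acid is made further forward and broken down in the tail bud by Cyp26a1. Part of the gut tube's endoderm descends from the visceral endoderm, an extraembryonic lineage that absorbs and secretes proteins such as Afp and Ttr.

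Library totals were between 70987960 and 78996683 counts, and mitochondrial transcripts took between 2.30% and 2.63% of them. Levels are in CPM, counts rescaled by each library's total and its TMM factor, with replicate 1 before replicate 2 in each pair. CPM of different genes were not corrected for transcript length and are compared only within a gene. Log2 changes are posterior minus midgut-posterior, and a gene passed at an adjusted p under 0.05 by edgeR's quasi-likelihood test. Of 17313 genes tested, 392 passed (2.26%), 195 of them higher (1.13%) and 197 lower (1.14%) in the posterior section, and 2537 had an unadjusted p under 0.05. In all 392 both posterior libraries lay on the same side of both midgut-posterior libraries. Over all genes tested, both posterior libraries lay above in 23.3% and below in 25.5%. The test itself favours genes whose libraries do not overlap, so the lack of overlap is no separate support. The median log2 change of all genes was -0.00058. Sizes of change in the genes that passed ran from 0.41 to 6.18 on the log2 scale for the higher ones, with a median of 2.00. For the lower ones the median size was 1.96, which the 4 genes at 0 in both posterior libraries exceed at their bounds as well.

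**Figure D1:**
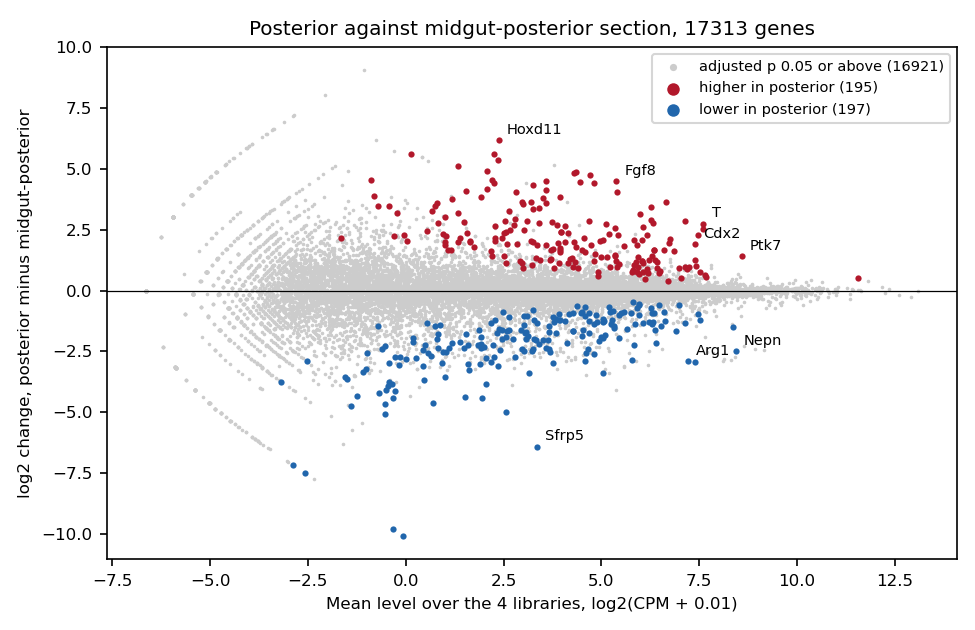
Each point is a gene, with its mean level over the 4 libraries as log2(CPM + 0.01) on the horizontal axis and its log2 change on the vertical axis; coloured points passed the test. The 195 higher and 197 lower genes stand at low and at high levels, and most genes lie close to 0.

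The 2 posterior libraries were not alike. Of the 195 genes higher in the posterior section, replicate 1 exceeded replicate 2 in 181 (92.8%, against 48.2% of all genes tested), so replicate 1 lay further from the midgut-posterior section. The genes lower in the posterior section were less far down in replicate 2: replicate 1 was the higher of the pair in 41 of 197 (20.8%). Some genes of mesoderm were low in posterior replicate 1. The mesenchymal factor Foxf1 stood at 22.5 and 167 CPM in the posterior libraries and 185 and 243 CPM in the midgut-posterior libraries, and the collagen gene Col3a1 at 7.57 and 133 against 339 and 647 CPM; these 2 and Epcam were picked after their values were seen. Summed over 17 genes of lateral plate, allantois and hindlimb mesoderm, the level was 331 and 842 CPM in the posterior libraries against 547 and 800 CPM. The 17 did not move as one, with Isl1 at 38.8 and 32.0 CPM and Bmp4 at 100 and 106 CPM in the posterior libraries. None of the 17 passed by edgeR and 2 were higher by DESeq2; before adjustment 4 were higher and 1 lower at p under 0.05. By edgeR, 4 of them were lower without posterior replicate 2 and none without each of the other 3 libraries. The epithelial adhesion gene Epcam went the other way, with 393 and 163 CPM in the posterior and 223 and 159.9 CPM in the midgut-posterior libraries. The posterior libraries thus differed from each other in Foxf1, Col3a1, Epcam and this summed list. Other mesoderm lists were not lower in replicate 1: presomitic mesoderm and somites summed to 406 and 297 CPM, intermediate mesoderm to 378 and 366 CPM. The pan-endoderm and epithelium list summed to 3187 and 2039 CPM, while its members Gata4, Gata6 and Hnf4a were higher in replicate 2. Counts of called list members are given below with libraries left out. In bulk tissue, fewer cells of a type and less RNA per cell cannot be told apart.

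Left out in turn, the 4 libraries gave very different numbers of calls. Without posterior replicate 1, 65 genes passed, and without posterior replicate 2, 797. Without midgut-posterior replicate 1 or 2, 65 and 98 passed. Of the 392 genes, 39 passed in each of these 4 fits. They include Cdx2, Wnt5b, Cyp26a1, Dkk1, Dll3, Hey1 and Il17rd among the higher genes and Arg1, Rfx6, Pkdcc, Rarb, Fgfr2, Lipa and Fzd7 among the lower ones. These 39 are called stable to the loss of a library below. No named gene that passed in any of these fits changed direction.

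**Figure D2:**
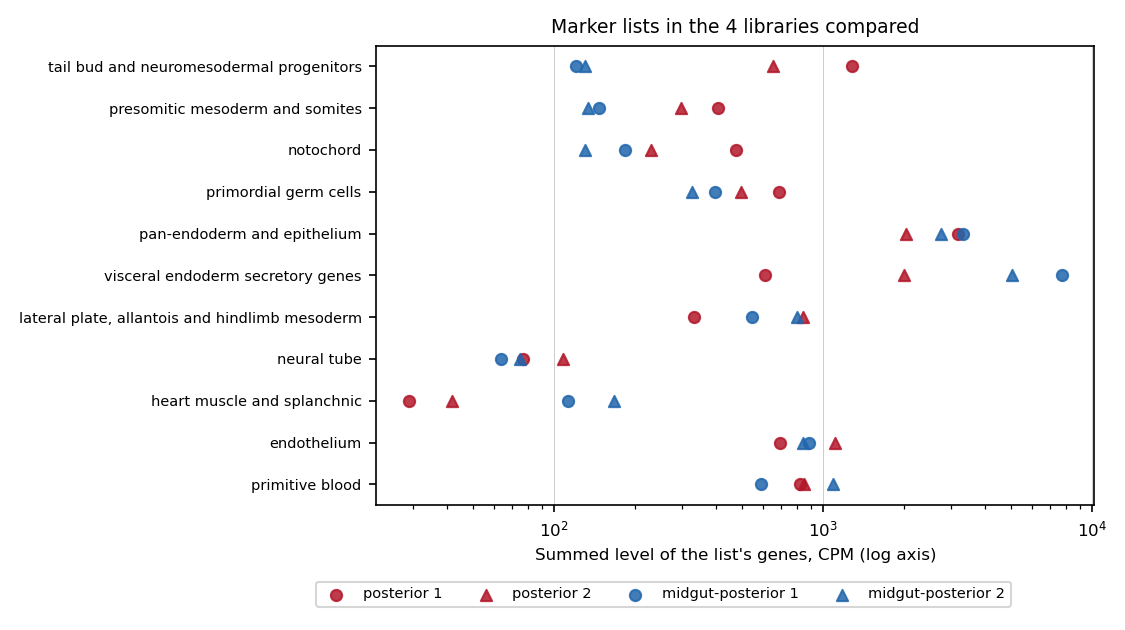
Points give the summed level in CPM (log axis) of 11 marker lists in each of the 4 libraries, red for posterior and blue for midgut-posterior, circles for replicate 1 and triangles for replicate 2. Tail bud genes are higher in both posterior libraries, at 651 and 1282 CPM against 121 and 130 CPM. The sum of lateral plate, allantois and hindlimb mesoderm genes is lowest in posterior replicate 1.

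The labelled tissue was checked on its markers. All 23 genes of the pan-endoderm and epithelium list were detected in every library, and none passed by edgeR in either direction. Their summed level was 3187 and 2039 CPM in the posterior and 3311 and 2754 CPM in the midgut-posterior libraries, so the ranges overlap. With no adjustment for the number of genes, 4 were higher and 6 lower at p under 0.05, and DESeq2 called 1 higher and 4 lower. By edgeR, 2 were higher and 3 lower without posterior replicate 2, 1 was higher and 3 were lower without the filter on low counts, and none passed without each of the other 3 libraries. The list's median log2 change was 0.11. Of its members, 14 had positive and 9 negative log2 changes. The early endoderm factor Foxa2 stood at 95.5 and 35.8 CPM in the posterior against 25.4 and 18.2 CPM in the midgut-posterior libraries (adjusted p = 0.0606). The endoderm factor Sox17 stood at 53.1 and 36.7 against 27.3 and 24 CPM (adjusted p = 0.142). Gata4 went the other way, at 1.25 and 11.6 against 51.1 and 81.4 CPM (adjusted p = 0.0568). So did Gata6, at 25.2 and 46.8 against 72.1 and 92.3 CPM (adjusted p = 0.0759), and Hnf4a (log2 change -2.59). The hedgehog ligand Shh stood at 204 and 92.8 against 84 and 48.5 CPM and its relative Ihh at 68.5 and 34.4 against 59.6 and 34.4 CPM, and neither passed (adjusted p = 0.207 and 0.958). Foxa2 and Shh are also on the notochord list, so they do not mark gut endoderm alone. Of 13 genes of hindgut and cloaca endoderm, Cdx2 alone passed, in the main fit and in each fit with 1 library left out, and the list's median log2 change was 0.47.

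The sequences of 5 promoters follow, since T, Sp5, Msgn1, Dkk1 and Hoxa7 rose together in the posterior section and short motifs of factors active there occur in them. Each is the 250 bases before the transcription start from RefSeq on build GRCm38.p6, 5′ to 3′ on the gene's strand. Capitals mark CTTTGA, the core that TCF and LEF factors of Wnt signalling bind, and TTTATG, a form of the site of Cdx factors, on either strand (TCAAAG and CATAAA on the other). The letters of these motifs do not overlap in the 5 stretches. The genes and motifs were chosen after values were seen.
T (chr17:8434173-8434422, plus strand): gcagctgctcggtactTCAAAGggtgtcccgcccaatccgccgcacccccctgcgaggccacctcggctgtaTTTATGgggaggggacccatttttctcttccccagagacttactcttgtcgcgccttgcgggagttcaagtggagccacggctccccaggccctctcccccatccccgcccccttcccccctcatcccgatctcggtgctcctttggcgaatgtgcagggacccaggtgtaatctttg
Sp5 (chr2:70474673-70474922, plus strand): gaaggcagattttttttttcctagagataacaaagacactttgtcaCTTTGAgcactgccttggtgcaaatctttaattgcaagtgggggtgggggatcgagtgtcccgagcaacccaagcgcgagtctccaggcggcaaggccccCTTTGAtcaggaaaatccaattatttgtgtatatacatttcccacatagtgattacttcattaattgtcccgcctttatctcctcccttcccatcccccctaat
Msgn1 (chr12:11208949-11209198, minus strand): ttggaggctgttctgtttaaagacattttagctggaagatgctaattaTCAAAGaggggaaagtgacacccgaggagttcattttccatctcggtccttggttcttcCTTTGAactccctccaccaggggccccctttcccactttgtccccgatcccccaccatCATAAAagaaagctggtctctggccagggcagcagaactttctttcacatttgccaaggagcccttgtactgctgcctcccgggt
Dkk1 (chr19:30549497-30549746, minus strand): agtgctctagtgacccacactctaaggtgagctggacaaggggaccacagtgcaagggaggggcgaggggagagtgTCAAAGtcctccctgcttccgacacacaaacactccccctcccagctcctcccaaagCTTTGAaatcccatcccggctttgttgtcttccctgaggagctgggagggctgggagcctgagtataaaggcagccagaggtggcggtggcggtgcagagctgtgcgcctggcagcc
Hoxa7 (chr6:52218574-52218823, minus strand): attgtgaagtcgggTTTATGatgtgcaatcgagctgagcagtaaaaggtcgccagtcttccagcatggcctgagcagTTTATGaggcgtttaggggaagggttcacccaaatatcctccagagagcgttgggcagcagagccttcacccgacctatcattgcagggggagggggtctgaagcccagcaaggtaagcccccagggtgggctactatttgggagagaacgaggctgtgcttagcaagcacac

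Sp5 and Dkk1 each hold CTTTGA at 2 places, Msgn1 holds it at 2 places beside 1 TTTATG, T holds 1 of each, and Hoxa7 holds TTTATG at 2 places. No test of a difference in these shares was run. Of 132 higher genes with a promoter in the table, 15 held CTTTGA (11.4%) and 10 held TTTATG (7.58%). Of 12720 tested genes with a promoter, the shares were 11.3% and 6.49%, and over all 27025 promoters there they were 14% and 11.1%. Of the 141 lower genes with a promoter, 9.22% held CTTTGA and 4.26% TTTATG. These matches describe letters in a window and are not evidence of binding.

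Hox genes, the transcription factors that set position along the body axis, differed by their place in the clusters. Of 14 tested genes of groups 9 to 13, at the 5′ end of the clusters, 9 rose in the posterior section and none fell, with a median log2 change of 4.15 (3.87 with Hoxb13, at 0 in both midgut-posterior libraries, set at its bound). Both posterior libraries lay above both midgut-posterior libraries in all 14, against 23.3% of all genes tested. Hoxd11 stood at 12.7 and 7.63 CPM in the posterior libraries and 0.0838 and 0.194 CPM in the midgut-posterior libraries (log2 change 6.18, SE 0.83, adjusted p = 0.00589). Hoxd9 stood at 136 and 90.4 against 7.52 and 18 CPM (log2 change 3.15, SE 0.53, adjusted p = 0.0109). These ranges lie far apart, although the midgut-posterior values of Hoxd9 differed by more than 2 times between replicates.

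The other members that rose were Hoxa9, Hoxc9, Hoxa10, Hoxc10, Hoxd10, Hoxa11 and Hoxd13. Their log2 changes ran from 2.73 (Hoxc9) to 5.36 (Hoxa11). Hoxa10 stood at 68.7 and 39.1 CPM in the posterior and 1.45 and 3.64 CPM in the midgut-posterior libraries, and Hoxd13, from the last group of the cluster, at 29.5 and 16.6 against 0.949 and 1.05 CPM. Hoxa13, which with Hoxd13 patterns the cloaca, stood at 3.55 and 4.74 against 0.181 and 0.374 CPM and did not pass (adjusted p = 0.0706). Hoxb9, also not past the test (adjusted p = 0.245), was well detected in both sections at 142 and 207 and 51.7 and 58.3 CPM. The group's count rests on the libraries: 1 member passed without posterior replicate 1 (Hoxd11), 7 without posterior replicate 2, none without midgut-posterior replicate 1 and 2 without midgut-posterior replicate 2 (Hoxd9 and Hoxc10). Without midgut-posterior replicate 1, the adjusted p of Hoxd11 was 0.0841 and that of Hoxd9 0.115.

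Groups 5 to 8 changed less and groups 1 to 4 had no member past the test. Of 11 genes of groups 5 to 8, 3 rose: Hoxa7 (307 and 188 against 34.2 and 33.4 CPM, log2 change 2.87), Hoxc6 (85.2 and 58.1 against 11.8 and 17.4 CPM, 2.30) and Hoxc8 (125 and 121 against 32.8 and 43.9 CPM, 1.68). The median log2 change of these 11 was 1.58. All 3 group 5 genes had negative values, with Hoxa5 at 16.1 and 22.2 against 50.7 and 42.4 CPM (adjusted p = 0.164). Without posterior replicate 2, 2 members of groups 5 to 8 passed, and none in each of the other 3 fits with 1 library left out. Among 12 genes of groups 1 to 4, none passed by edgeR, 2 were higher and 1 lower before adjustment, at p under 0.05, while DESeq2 called 1 in each direction. So did edgeR without posterior replicate 2, and it called none without each of the other 3 libraries.

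**Figure D3:**
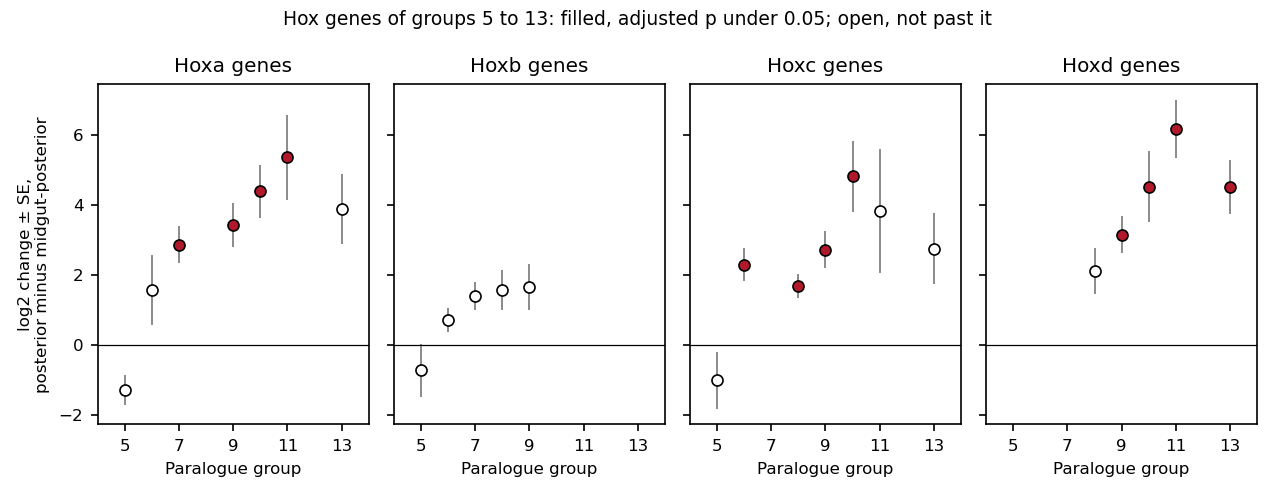
Log2 change with its standard error for each tested Hox gene of groups 5 to 13 in the a, b, c and d clusters against its paralogue group, filled where the gene passed the test; Hoxb13, at 0 in both midgut-posterior libraries, is left out. Values lie below 0 at group 5 in the a, b and c clusters and climb to 5.36 at Hoxa11 and 6.18 at Hoxd11.

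Cdx genes code for the homeobox factors that act above the posterior Hox genes. Cdx2, needed for hindgut identity, stood at 322 and 209 CPM in the posterior and 80.1 and 59.9 CPM in the midgut-posterior libraries, so every posterior value was more than 2 times any midgut-posterior value (log2 change 1.92, SE 0.23, adjusted p = 0.0021). It was stable to the loss of a library. Cdx4 stood at 215 and 158 against 13.2 and 16.9 CPM (log2 change 3.64, SE 0.65, adjusted p = 0.0169), a wider gap, but its adjusted p was 0.113 without posterior replicate 1, 0.167 without midgut-posterior replicate 1 and 0.13 without midgut-posterior replicate 2. Cdx1 stood at 19.3 and 20.8 against 14.4 and 14.5 CPM, with both posterior values above both midgut-posterior values, and did not pass (log2 change 0.47, SE 0.36, adjusted p = 0.675). The homeobox gene Evx1, which lies beside the HoxA cluster, stood at 98.2 and 60.8 against 3.5 and 6.06 CPM (log2 change 4.05, SE 0.53, adjusted p = 0.00324). Without midgut-posterior replicate 1 its adjusted p was 0.0558.

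Of the 15 genes listed with the Cdx genes as posterior patterning factors, 7 rose, none fell, and the median log2 change was 1.21. The others were the zinc-finger factors Sall1 (253 and 219 against 97.9 and 101 CPM) and Sall4 (227 and 176 against 103 and 102 CPM), the ligand Gdf11 (48.2 and 30.4 against 16.4 and 17.6 CPM), which times the switch from trunk to tail, and the corepressor Tgif1. The heterochronic RNA-binding gene Lin28a did not pass, at 815 and 825 against 738 and 693 CPM (adjusted p = 0.591). Leaving out posterior replicate 1 left 3 of these calls and posterior replicate 2 left a count of 7. Without midgut-posterior replicates 1 and 2 the counts were 1 and 3.

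Genes of the tail bud and its neuromesodermal progenitors formed the list with the largest share of higher members among the 34 lists: 11 of 15 rose and none fell (median log2 change 2.85). T, or Brachyury, the factor of nascent mesoderm whose promoter is printed above, stood at 453 and 224 CPM in the posterior and 49.3 and 51.5 CPM in the midgut-posterior libraries (log2 change 2.75, SE 0.46, adjusted p = 0.0107). Its lower posterior value was still more than 4 times the higher midgut-posterior value. The adjusted p of T was 0.0943 without posterior replicate 1, 0.12 without midgut-posterior replicate 1 and 0.106 without midgut-posterior replicate 2. The zinc-finger genes Sp5 and Sp8, Wnt targets of the tail bud, stood at 96.3 and 43.7 against 11.1 and 12.3 CPM and at 63.9 and 25.8 against 6.6 and 5.87 CPM. Mixl1, a homeobox gene of the primitive streak, stood at 13.1 and 5.22 against 0.335 and 0.526 CPM (log2 change 4.40).

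Sox2 and Sox3, factors of neural progenitors, also rose. Sox2 stood at 37.8 and 24.8 against 9.8 and 5.81 CPM (adjusted p = 0.0421) and Sox3 at 6.36 and 9.19 against 2.57 and 1.19 CPM (adjusted p = 0.0464). Nkx1-2, a marker of neuromesodermal progenitors, was the one tested member far higher in posterior replicate 2, with 10.8 and 53.2 against 1.14 and 4.01 CPM, and did not pass (adjusted p = 0.0539). Eomes, a gene of the earlier primitive streak, was under 1 CPM in all 4 libraries. With posterior replicate 1 left out, 5 tail bud genes passed, and with posterior replicate 2 left out, 10. Without midgut-posterior replicates 1 and 2 the counts were 2 (Wnt5b and Cyp26a1) and 5.

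Among the listed FGF signalling genes, some ligands and feedback targets rose and 2 receptors fell. FGF ligands act through receptor tyrosine kinases, and Etv factors and several Spry and Dusp genes are their usual transcriptional readouts. Fgf8 stood at 113 and 45.7 CPM in the posterior and 1.69 and 5.31 CPM in the midgut-posterior libraries (log2 change 4.50, SE 0.68, adjusted p = 0.00638). Fgf17 stood at 67.6 and 33 against 1.26 and 2.44 CPM (log2 change 4.77, SE 0.62, adjusted p = 0.00302), and Fgf4 at 2.83 and 1.41 against 0.0279 and 0.0554 CPM (adjusted p = 0.033). For each of these ligands posterior replicate 1 was the highest of the 4 libraries, at 2 or more times replicate 2. Fgf9, Fgf10 and Fgf18 did not pass (adjusted p = 0.475, 0.95 and 0.47), and Fgf3, a tail bud ligand, was just outside (14.5 and 11.1 against 1.27 and 1.67 CPM, adjusted p = 0.0503).

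Among the targets, Etv4 stood at 147 and 84.4 against 17.6 and 20.0 CPM (log2 change 2.62, SE 0.33, adjusted p = 0.00287) and Etv5 at 133 and 101 against 52.7 and 44.1 CPM. Il17rd, or Sef, an inhibitor of FGF signalling, stood at 194 and 158 against 37.3 and 44.7 CPM (log2 change 2.10, SE 0.24, adjusted p = 0.00198), with no overlap, and was stable to the loss of a library. Spry4 and Dusp4, further inhibitors of the pathway, had log2 changes of 1.88 and 1.67. Outside the list, Dusp9 and Spry3 fell (log2 change -1.20 and -2.20), so genes of these families went both ways. The receptor gene Fgfr2 fell, from 110.5 and 138 CPM in the midgut-posterior to 32.1 and 49.4 CPM in the posterior libraries (log2 change -1.61, SE 0.18, adjusted p = 0.00169), and was also stable. Fgfr3 fell too (5.37 and 13.1 against 25.9 and 32.4 CPM), while Fgfr1 had a log2 change of -0.06 (adjusted p = 0.954).

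Over the 22 FGF genes, 8 rose and 2 fell, with a median log2 change of 1.16. The number that rose was 5 without posterior replicate 1 and 10 without posterior replicate 2. It was 1 without midgut-posterior replicate 1, where the adjusted p of Fgf8 was 0.0744, and 5 without midgut-posterior replicate 2. Of the 2 receptors, Fgfr2 passed in each of these fits.

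Among the listed Wnt signalling genes, some ligands, a receptor and feedback inhibitors rose. Of 29 tested, 10 rose and 1 fell (median log2 change 1.43). Wnt5b, a ligand of the tail bud, stood at 184 and 85.1 CPM in the posterior and 17.8 and 18.1 CPM in the midgut-posterior libraries (log2 change 2.91, SE 0.35, adjusted p = 0.00238), and Wnt5a, a ligand that guides tissue elongation, at 186 and 154 against 34.5 and 52.1 CPM (log2 change 1.97, SE 0.33, adjusted p = 0.0114). Both posterior values of each ligand were well above the midgut-posterior values. Wnt3a, which drives tail bud growth, stood at 37.3 and 16.3 against 0.0838 and 1.41 CPM and did not pass (adjusted p = 0.103); its midgut-posterior libraries differed by more than 10 times. Of the other ligands, Wnt2, Wnt2b, Wnt4 and Wnt11 had negative log2 changes and did not pass.

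The receptor gene Fzd10 stood at 129 and 109 against 23.2 and 26.3 CPM (adjusted p = 0.0375). Axin2, Nkd1, Rnf43 and Dkk1, inhibitors that Wnt signalling itself induces, all rose. Axin2 stood at 130.0 and 81.6 against 16.8 and 32.9 CPM (log2 change 2.09, SE 0.38, adjusted p = 0.0157), and Dkk1, a secreted blocker of Wnt coreceptors whose promoter is printed above, at 39.4 and 18.8 against 4.24 and 5.12 CPM (log2 change 2.63, SE 0.32, adjusted p = 0.00238). The nuclear factors Lef1 (112 and 116 against 36.9 and 47.5 CPM) and Tcf7 (78.2 and 74.2 against 40.5 and 49.3 CPM) rose by 1.43 and 0.76 on the log2 scale. Sfrp5, a secreted Wnt antagonist, was the one member that fell, to 0.269 and 0.201 CPM in the posterior from 12.3 and 28.1 CPM in the midgut-posterior libraries (log2 change -6.42, SE 1.04, adjusted p = 0.00927). It had an adjusted p of 0.124 without posterior replicate 1.

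Of these Wnt genes, Wnt5b and Dkk1 were stable to the loss of a library. Without posterior replicate 1 the Wnt list had 2 higher members and without posterior replicate 2 it had 10. Without midgut-posterior replicates 1 and 2 the counts were 2 and 5. Outside the list, Ptk7, a transmembrane protein of the planar polarity branch of Wnt signalling, stood at 648 and 463 against 201 and 220.1 CPM (log2 change 1.40, SE 0.17, adjusted p = 0.00249), and the receptor gene Fzd7 fell to 37.4 and 55.3 from 103 and 121 CPM (log2 change -1.28, SE 0.18, adjusted p = 0.00413). Both were stable to the loss of a library. Also outside the list, the receptor gene Fzd4 and the Wnt-related gene Dact2 fell (log2 change -1.37 and -0.90), and neither was stable. These genes were singled out after their values were seen.

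Retinoic acid genes changed in both directions. Cyp26a1, the enzyme that degrades retinoic acid in the tail bud, rose, while Aldh1a2, Rdh10 and Dhrs3, which handle its precursors, fell. Cyp26a1 stood at 196 and 82.7 CPM in the posterior and 19.2 and 21.5 CPM in the midgut-posterior libraries (log2 change 2.77, SE 0.34, adjusted p = 0.00249). Aldh1a2, the main retinoic acid synthase of the early embryo, stood at 8.69 and 17.9 against 93.2 and 98.7 CPM (log2 change -2.85, SE 0.47, adjusted p = 0.00986). The groups are far apart for both, and replicate 2 of the posterior section lay nearer to the midgut-posterior values for each. Rdh10, which makes the retinal that Aldh1a2 uses, stood at 11.8 and 28.7 against 56.8 and 61.8 CPM (adjusted p = 0.0482).

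The receptor genes went opposite ways. Rarb, which retinoic acid itself induces, fell to 10.2 and 16.6 from 50.1 and 54.1 CPM (log2 change -1.96, SE 0.27, adjusted p = 0.00393), and Rarg rose to 123 and 114 from 51 and 54.2 CPM (log2 change 1.17, SE 0.22, adjusted p = 0.0181). Cyp26b1, a further degrading enzyme, stood at 3.38 and 5.25 against 21.3 and 18.9 CPM, opposite in direction to Cyp26a1, and did not pass (adjusted p = 0.0592). Of the 15 genes, 2 rose and 4 fell, and the median log2 change was -0.17. Cyp26a1 and Rarb were stable. The number that fell was 1 without posterior replicate 1, where the adjusted p of Aldh1a2 was 0.123, 4 without posterior replicate 2, and 1 with either of the midgut-posterior libraries left out.

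Notch signalling genes, which run the segmentation clock in presomitic mesoderm, rose in 8 of 17 cases and fell in none (median log2 change 1.36). The ligand gene Dll1 stood at 27.4 and 23.5 CPM in the posterior and 2.05 and 5.73 CPM in the midgut-posterior libraries, and Dll3, an inhibitory Notch ligand of the clock, at 25.4 and 18.9 against 0.949 and 2.7 CPM (log2 change 3.60, SE 0.47, adjusted p = 0.00324). Among the targets, Hes7, the oscillating repressor of the clock, stood at 31.8 and 13.2 against 0.838 and 1.74 CPM (log2 change 4.12, SE 0.61, adjusted p = 0.00529), Nrarp at 105 and 78.7 against 24.1 and 19.4 CPM, and Hey1 at 92 and 82.6 against 37.1 and 30.7 CPM (log2 change 1.36, SE 0.17, adjusted p = 0.00249). Jag1, a ligand of other tissues as well, rose by 1.85 on the log2 scale. Dll3 and Hey1 were stable to the loss of a library. Without posterior replicates 1 and 2 the number that rose was 3 and 8, and without midgut-posterior replicates 1 and 2 it was 2 and 4.

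Of 20 genes of presomitic mesoderm and somites, 6 rose and none fell. Dll1, Dll3, Hes7 and Nrarp are the Notch genes given above, and the others were Tbx6 and Msgn1. Tbx6, a factor that commits cells to paraxial mesoderm, stood at 16.8 and 12.4 against 0.503 and 1.85 CPM (log2 change 3.63, SE 0.65, adjusted p = 0.0146), and Msgn1, a factor of unsegmented mesoderm, at 10.1 and 8.51 against 0.0558 and 0.318 CPM (log2 change 5.62, SE 1.18, adjusted p = 0.0352). The list did not move as one, since 8 of the 20 log2 changes were negative. At an unadjusted p under 0.05, 3 were lower, the somite and mesoderm factors Meox1, Meox2 and Tbx18. Tbx18 stood at 0.195 and 1.39 against 5.29 and 5.47 CPM (adjusted p = 0.0879). DESeq2 called 3 members lower, and edgeR called 2 lower without posterior replicate 2. The list summed to 406 and 297 CPM in the posterior and 147 and 134 CPM in the midgut-posterior libraries, and 2 members were at 0 in midgut-posterior replicate 1. The counts of higher members were 2 and 7 without posterior replicates 1 and 2, and 1 and 4 without midgut-posterior replicates 1 and 2. Tail bud markers summed to 1282 and 651 CPM in the posterior and 121 and 130 CPM in the midgut-posterior libraries, with no member at 0. These lists mark tissue that borders the gut tube, and the part of such tissue in the Hox, Cdx, FGF, Wnt, Notch and retinoic acid differences was not tested.

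Markers of further tissues gave few calls, and their medians lay on both sides of 0. Neural tube genes rose in 3 of 13 cases (Hes5, Sox2 and Sox3, 2 of which are tail bud genes), and the list summed to 76.7 and 108 CPM in the posterior and 63.6 and 74.8 CPM in the midgut-posterior libraries. It had 2 rose without posterior replicate 2 and none in each of the other 3 fits with 1 library left out. Its median log2 change was 2.00 (1.5 with Olig2, at 0 in both libraries of 1 section, set at its bound). Of 12 genes of intermediate mesoderm and the mesonephric duct, Sall1 and Pax2 rose and none fell, 6 log2 changes were negative and the median was -0.19. Before adjustment 3 were lower at p under 0.05, as were 2 by DESeq2, and edgeR called 3 lower without posterior replicate 2 and none without each of the other 3 libraries. Pax2, a factor of the nephric duct, stood at 36.6 and 15.5 against 5.44 and 4.5 CPM (log2 change 2.39, SE 0.41, adjusted p = 0.012). Heart muscle and splanchnic genes summed to 28.9 and 42 CPM in the posterior and 113 and 167 CPM in the midgut-posterior libraries. Of these 14 genes 1 fell and none rose, 12 log2 changes were negative, the median was -1.17, and DESeq2 called 4 lower. The count was 2 without posterior replicate 2 and 0 without each of the other 3 libraries. The 1 that fell was Tbx5, a cardiac and forelimb factor (0.0488 and 0.464 against 2.62 and 8.22 CPM, adjusted p = 0.0421). Without posterior replicate 2 the adjusted p was 0.00211 for Pax2 and 0.0249 for Tbx5. Without each of the other 3 libraries it lay between 0.0985 and 0.129 for Pax2 and between 0.0755 and 0.307 for Tbx5. Of 10 notochord genes none passed by edgeR, 5 were higher before adjustment, at p under 0.05, while DESeq2 called 1, and the list summed to 477 and 230 CPM against 183 and 131 CPM. For edgeR 2 were higher without posterior replicate 2, and without each of the other 3 libraries none. Of 9 tested genes of surface ectoderm, 1 rose, the epidermal factor Trp63 (3.14 and 2.96 against 0.503 and 0.388 CPM, adjusted p = 0.0274), 5 were higher at an unadjusted p under 0.05, and the median log2 change was 1.45. It passed without posterior replicate 2 and in none of the other 3 fits. The list summed to 160 and 127 CPM against 106 and 121 CPM. Blood and endothelium markers had no member past the test by edgeR or DESeq2, 0 and 1 of them at an unadjusted p under 0.05. The part of these tissues in the differences above was not tested.

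Germ cell genes, whose carriers migrate through the hindgut at this age, had no member past the test among 20, by DESeq2, by edgeR in the fit of all libraries or with 1 library left out. In the fit of the 4 sections alone, edgeR called 1 higher. At an unadjusted p under 0.05, 5 were higher, and 18 of the 20 log2 changes were positive (median 0.72). The pluripotency factor Pou5f1 stood at 43.1 and 9.36 CPM in the posterior and 19.6 and 5.97 CPM in the midgut-posterior libraries, and Dppa3, a marker of germ cells, at 16 and 2.42 against 6.74 and 1.97 CPM. For both genes replicate 1 exceeded replicate 2 in each section by more than 3 times, and for each replicate number the posterior value was the higher. In the anterior-midgut libraries Dppa3 had no counts and Pou5f1 stood at 0.104 and 0.13 CPM.

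Of 13 genes of midgut and hepatopancreatic endoderm, 2 fell and 1 rose in the posterior section, with a median log2 change of -0.82. Nepn, a midgut marker of this stage, stood at 82.6 and 124 CPM in the posterior and 717 and 454 CPM in the midgut-posterior libraries (log2 change -2.50, SE 0.49, adjusted p = 0.0239). Its adjusted p was 0.27, 0.154 and 0.0612 without posterior replicate 1, midgut-posterior replicate 1 and midgut-posterior replicate 2. Rfx6, a transcription factor of gut and pancreatic endocrine development, stood at 2.58 and 3.5 against 23.4 and 25.1 CPM (log2 change -2.99, SE 0.32, adjusted p = 0.00138). Vil1, a protein of the microvillus core, stood at 5.63 and 10.3 against 54.5 and 42 CPM (log2 change -2.60, SE 0.52, adjusted p = 0.0258). Hnf4a did not pass, at 3.00 and 12.3 against 55.7 and 36.2 CPM (adjusted p = 0.0801). Mnx1, a homeobox factor of the early pancreas, rose (69 and 30.9 against 14.2 and 10.5 CPM). The number of the 13 that fell was 0 without posterior replicate 1 or midgut-posterior replicate 1, 3 without posterior replicate 2 and 1 without midgut-posterior replicate 2. Mnx1 passed without posterior replicate 2 and in none of the other 3 fits.

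The 2 genes with the smallest adjusted p over the whole comparison were Arg1, on the lower side, and Sp6, on the higher side. Arg1, the arginase of the urea cycle, stood at 30.0 and 39.9 CPM in the posterior and 272 and 249 CPM in the midgut-posterior libraries (log2 change -2.90, SE 0.25, adjusted p = 0.00051). Sp6, a zinc-finger factor related to Sp5 and Sp8, stood at 18.3 and 16.6 against 1.48 and 1.92 CPM (log2 change 3.36, SE 0.30, adjusted p = 0.00051). The sections lay far apart for both. Pkdcc, a secreted tyrosine kinase, fell to 24.4 and 53.6 from 288 and 306 CPM (log2 change -2.93, SE 0.32, adjusted p = 0.00138), and Irs4, an adaptor of insulin signalling, to 1.51 and 0.954 from 6.00 and 10.4 CPM (log2 change -2.73, SE 0.38, adjusted p = 0.00444). All 4 were stable to the loss of a library, as was the lysosomal lipase gene Lipa (38.7 and 48.4 against 119 and 106 CPM, log2 change -1.37). Lipa was the sole gene past the test among 20 of lysosome and endocytosis, 19 of which had negative log2 changes (median -0.44).

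Secretory genes of the visceral endoderm were the clearest case in which the 2 posterior libraries disagreed. Of 29 genes, 2 fell, Mttp, which loads lipoproteins, and Car4, a carbonic anhydrase. Both posterior libraries lay below both midgut-posterior libraries in 26 of the 29, against 25.5% of all genes tested, and the median log2 change was -2.51. Afp, the main secreted protein of this lineage, stood at 34 and 314 CPM in the posterior and 1219.6 and 690.5 CPM in the midgut-posterior libraries (adjusted p = 0.219), and the apolipoprotein gene Apoa1 at 3.09 and 150.2 against 695 and 429 CPM (adjusted p = 0.34). Replicate 1 of the posterior section was far below replicate 2 for Afp and Apoa1. Mttp stood at 18.9 and 42.6 against 160 and 115 CPM. For Car4 the posterior libraries were close, at 167 and 177 against 547 and 423 CPM. At an unadjusted p under 0.05, 21 of the 29 were lower, and 11 by DESeq2. Without posterior replicate 2, 17 fell, and without each of the other 3 libraries none did.

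The matrix genes Tnc and Dcn and the collagen receptor gene Ddr2, products of mesenchyme, also fell, and none of them was stable to the loss of a library. Genes of the matrix did not move as one, since Mgp and Adamtsl2 rose (log2 change 3.89 and 3.82). Tnc, an adhesion-modulating glycoprotein, stood at 2.1 and 9.51 against 29.4 and 91.2 CPM (log2 change -3.38, SE 0.77, adjusted p = 0.0447), Dcn at 0.733 and 2.91 against 9.28 and 14.9 CPM, and Ddr2 at 1.12 and 0.954 against 4.03 and 12.1 CPM. Lama1, a laminin chain of epithelial basement membranes, fell by less, to 62.9 and 73.6 from 124 and 125 CPM (log2 change -0.87, SE 0.12, adjusted p = 0.00444). Tnc and Lama1 were the 2 of 18 basement membrane and collagen genes that passed, a count that was 0 without posterior replicate 1, 7 without posterior replicate 2 and 1 with either of the midgut-posterior libraries left out. The summed level of lateral plate, allantois and hindlimb mesoderm genes given above was lowest in posterior replicate 1. The part of such tissue in the lower matrix genes was not tested. Imprinted genes, many of them growth regulators, had no member past the test by edgeR among 16; 4 were lower before adjustment, at p under 0.05, while DESeq2 called 3 lower. By edgeR, 4 were lower without posterior replicate 2, 1 without the filter on low counts, and none without each of the other 3 libraries.

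Genes of the p53 response rose in 3 of 15 cases (median log2 change 0.35). They were Cdkn1a, a cell-cycle inhibitor (82.7 and 36 against 23 and 19.9 CPM, log2 change 1.47, SE 0.32, adjusted p = 0.0353), Pmaip1, a promoter of apoptosis (8.49 and 10.6 against 2.11 and 2.95 CPM), and Zmat3. In the 4 fits with 1 library left out, 3 passed without posterior replicate 2 and none in the others. None of 16 cell-cycle genes passed by edgeR, although 1 was lower without posterior replicate 2, with 1 higher and 2 lower at an unadjusted p under 0.05, 1 was lower by DESeq2, and the list summed to between 4176 and 4500 CPM in the 4 libraries. Ldha was the single gene of 17 for glycolysis and hypoxia past the test, with a log2 change of 0.54, and it passed in none of the 4 fits with 1 library left out. No gene of immediate early response and heat shock passed by edgeR or DESeq2, with 1 of 16 lower at an unadjusted p under 0.05.

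**Figure D4:**
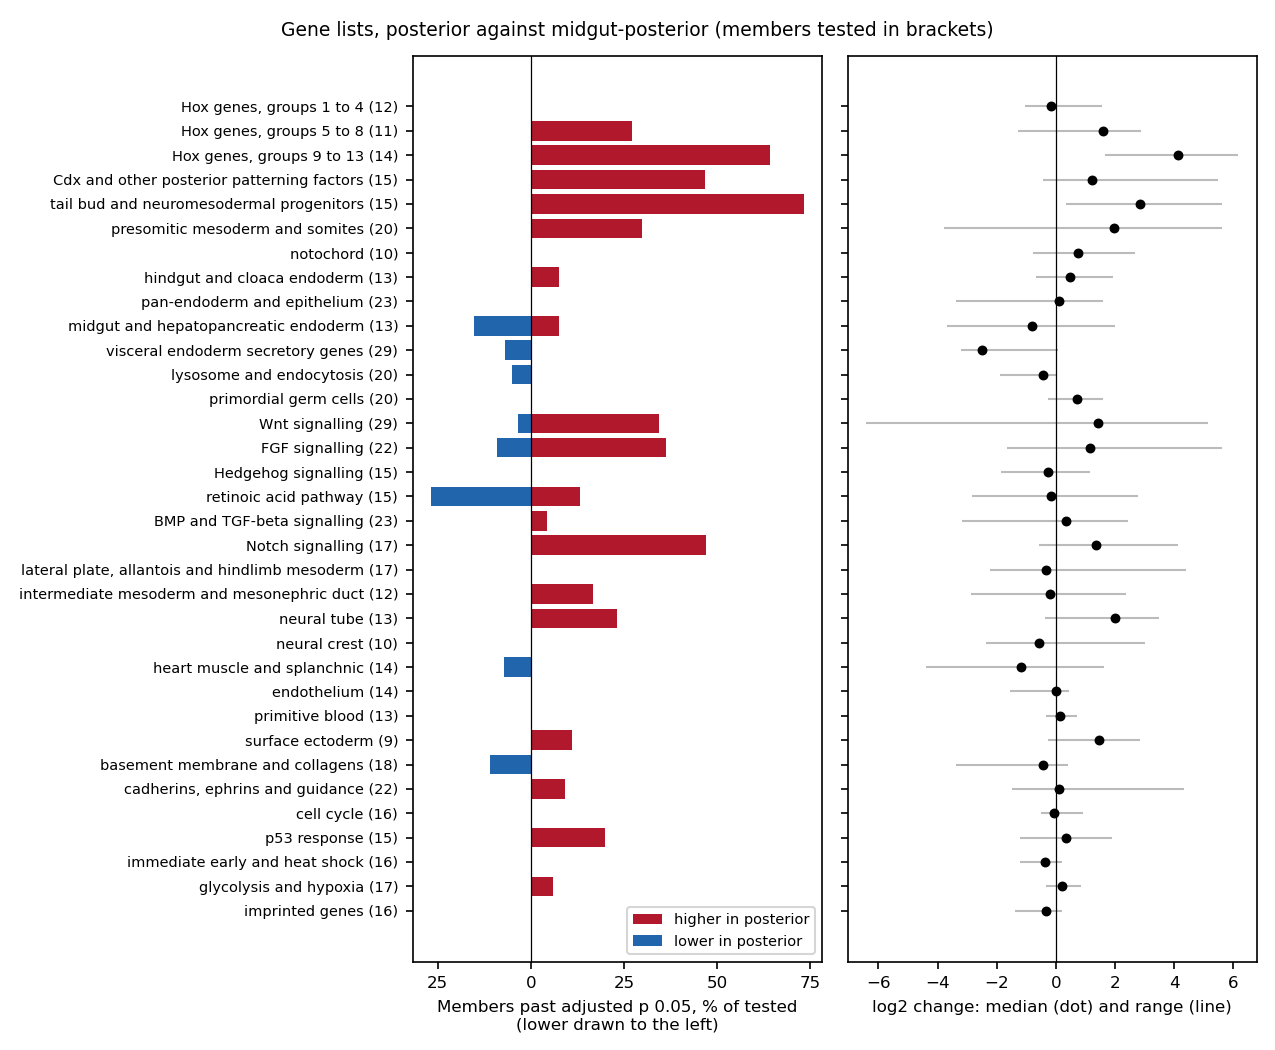
The left panel gives, for each of 34 gene lists, the share of tested members that passed, higher in the posterior section to the right and lower to the left; the right panel gives the median log2 change and the range of its members. Tail bud genes (11 of 15) and Hox genes of groups 9 to 13 (9 of 14) have the largest shares, and the visceral endoderm list has the lowest median, at -2.51.

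Read along the whole tube, many genes of this last step were not graded from front to back. Of the 195 genes higher in the posterior than in the midgut-posterior section, 175 (89.7%) had their highest mean of the 4 sections in the posterior section and 20 (10.3%) in the anterior section, against 27.6% and 28.6% of all genes tested. By their choice none of these genes can be highest in the midgut-posterior section. The same choice raises the share that is highest in the posterior section, so that share is no separate support. Levels of the 2 front sections do not enter the contrast, but the spread of their libraries entered the fit that chose these genes. Shares of genes that separate the front sections, for higher and lower genes alike, are therefore not independent of that choice. Both anterior libraries lay above both anterior-midgut libraries in 125 of the 195 (64.1%), against 25.8% of all genes tested. Fgf8 stood at 54.5 and 37.3 CPM in the anterior and 5.07 and 7.09 CPM in the anterior-midgut libraries, and Sox2 at 120.1 and 75.9 and 16.5 and 16.7 CPM. Cdx2 showed the opposite order there, with 0.685 and 0.933 CPM in the anterior and 16.1 and 15.7 CPM in the anterior-midgut libraries. Of the 197 lower genes, 119 (60.4%) had their highest mean in the anterior-midgut section, against 21.1% of all genes. In the midgut-posterior section the number was 61 (31%), against 22.7%. By their choice none of the lower genes can be highest in the posterior section, which raises the shares of other sections. Both anterior libraries lay below both anterior-midgut libraries in 165 of these 197 (83.8%), against 29.7% of all genes.

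**Figure D5:**
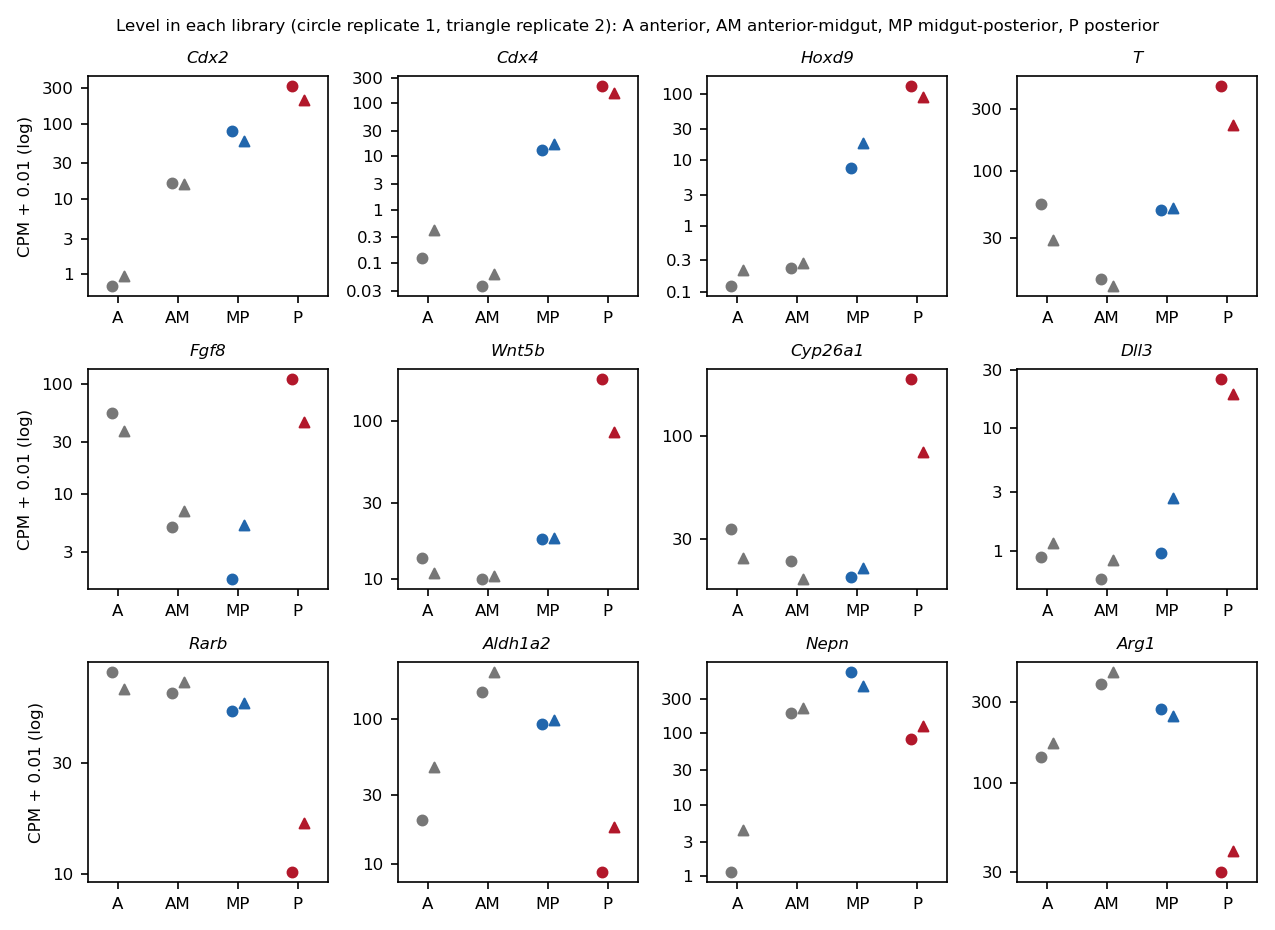
Levels of 12 genes in each library of the 4 sections (log axis of CPM + 0.01), in order from anterior to posterior, circles for replicate 1 and triangles for replicate 2. Cdx2 climbs over every step, Fgf8 is high at both ends, Rarb is low in the posterior section alone of the 4, and Arg1 is lowest in the posterior section.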

How the data were processed

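The files hold raw counts per gene symbol as deposited by the authors, 1 table per library, not normalized, since they are whole numbers whose sums differ between libraries. Per the submitters' processing notes STAR was the aligner. The sources used here do not name its version, the build, the gene models or how reads were counted. Each library had 26795 entries; repeats of 32 symbols were added up. Of the resulting 26761 symbols, 25561 were found among mouse gene names. Whether reads were counted by strand is not given, so overlapping and antisense genes, several of which lie in the Hox clusters, may share reads.

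All 16 libraries entered 1 quasi-likelihood fit in edgeR 4.0.16 (R 4.3.3), with a coefficient for each of 8 groups, TMM normalization and filterByExpr (minimum count 10, minimum total 15), which left 17313 genes, 8 residual degrees of freedom and a common dispersion of 0.0592. The contrast of posterior minus midgut-posterior was tested two-sided, with Benjamini-Hochberg adjustment over all genes tested and a threshold of 0.05. A fit with 1 library left out assumes that the lone library varies like the other groups. Gene lists are described by counts and medians. Genes at 0 counts were set against a floor of 3 counts over a section; floors cover counting error only. Steps were tested on simulated data. Alternatives were RLE size factors, no filter, a replicate block, fits of 2 or 4 sections, and DESeq2 1.42.0.

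Named genes are the 15 largest changes in each direction whose mean in the higher section was 3 log2 CPM or more, all Hox genes, list members that passed, up to 4 per list by smallest adjusted p, and a set of key genes such as Afp and Cdx2; results for some genes are not reported here. The comparison and the lists were chosen with earlier results of these data known. Further list members given as values and the genes of the closing section were picked after their values were seen. So were Foxf1, Col3a1, Epcam, Ptk7, Fzd7, Fzd4, Dact2, Dusp9, Spry3, Mgp, Adamtsl2 and Sp6. Replicates differed far beyond sampling noise (chi-square per gene 102 and 42.7) and were not merged. Same-numbered libraries had a correlation of deviations across genes of 0.17, a single value, and the labels do not say that numbers mark pairs.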

Additional observations from a re-analysis of the deposited data

How the results depend on the processing

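With RLE size factors 400 genes passed, without the filter 558 (316 lower), with a replicate block 304, and with the 4 sections alone 398 (59.5% higher, against 49.7%). With the 2 sections alone 17 passed (12 higher, 5 lower; 70.6% higher), and with a replicate block added to that fit 642 (314 higher, 328 lower). DESeq2 called 1287 (570 higher, 717 lower). Left out in turn, the 4 libraries gave from 65 to 797 calls, from 16 to 322 higher and from 29 to 475 lower; the higher share was 55.4% without posterior replicate 1, 40.4% without posterior replicate 2, 24.6% without midgut-posterior replicate 1 and 45.9% without midgut-posterior replicate 2. Whether the replicate numbers mark pairs is not known: the replicate block kept 293 of the 392 calls, and 280 in the fit of the 2 sections. DESeq2 kept all 392, the fit of the 4 sections 258 and the fit of the 2 sections 16. Of the 392, 7 passed in all 11 alternatives: Arg1, Il17rd, Lbh, Lpar3, Rfx6, Sp6 and Tfcp2l1. The cause of these differences was not tested, beyond the smaller number of libraries in some fits. RLE moved the median log2 change of all genes by less than 0.1.

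Of the distinct list members, 64 rose and 15 fell. Those that rose numbered 6 with the 2 sections alone, 101 by DESeq2 and from 7 to 67 with 1 library left out; those that fell numbered 30 without the filter, 0 with the 2 sections alone, 46 with the replicate block in that fit, 54 by DESeq2 and from 3 to 61 with 1 library left out. With the 2 sections alone, the count of higher members was 1 for Hox groups 9 to 13, 2 for Cdx and posterior factors, 0 for tail bud, 0 for presomitic mesoderm, 1 for Wnt, 1 for FGF and 0 for Notch genes, and the count of lower retinoic acid genes was 0. DESeq2 gave 13 higher FGF genes. With 1 library left out the counts ran from 0 to 7 for Hox groups 9 to 13, from 1 to 7 for Cdx and posterior factors, from 2 to 10 for tail bud, from 1 to 7 for presomitic mesoderm, from 2 to 10 for Wnt, from 1 to 10 for FGF and from 2 to 8 for Notch genes, and from 1 to 4 for lower retinoic acid genes. With a replicate block added to the fit of the 2 sections, 3 germ cell genes were higher, 6 imprinted genes lower, and 2 pan-endoderm genes higher and 4 lower, where the fit of all libraries called none. With a replicate block the 9 Hox genes of groups 9 to 13 became 6 and the 11 tail bud genes 8. No named gene past the threshold in either fit changed direction in any alternative.

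With 2 libraries per section, few genes pass in every fit, and a gene short of the threshold is not shown to be equal. Values far under 1 CPM, towards the floors of 0.0186 CPM (posterior) and 0.0208 CPM (midgut-posterior), rest on few counts. Log2 changes of such genes depend on the prior count.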

Other observations

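Genes outside the lists also separated the sections; those named in these 2 paragraphs were chosen after their values were seen. They are single genes, not a tested group, and genes with like roles also fell. Greb1, an oestrogen-responsive gene, stood at 293 and 291 CPM in the posterior and 49.1 and 71.8 CPM in the midgut-posterior libraries (log2 change 2.27, SE 0.33, adjusted p = 0.00529). The progesterone receptor gene Pgr stood at 7.11 and 2.77 against 1.41 and 1.08 CPM (log2 change 1.99, SE 0.42, adjusted p = 0.0327) and the oestrogen receptor gene Esr1 at 2.16 and 0.879 against 0.168 and 0.166 CPM (log2 change 3.17, SE 0.66, adjusted p = 0.0293). Agtr1a, a receptor of angiotensin, stood at 20.9 and 8.51 against 4.2 and 2.99 CPM (log2 change 2.03, SE 0.39, adjusted p = 0.0193). Greb1 was nearly equal in the 2 posterior libraries, while for the 3 receptor genes posterior replicate 1 was more than 2 times replicate 2. The growth hormone receptor gene Ghr fell (log2 change -1.37), as did Cckar, a receptor of cholecystokinin (log2 change -4.68). Also higher were the homeobox genes Tlx2 (58.8 and 19.7 against 0.726 and 1.97 CPM, log2 change 4.86, SE 0.78, adjusted p = 0.00894) and Phox2a (11.6 and 4.22 against 0.377 and 0.484 CPM, log2 change 4.19, SE 0.51, adjusted p = 0.00302), and Gad1, which makes the transmitter GABA (22 and 11.7 against 0.614 and 2.06 CPM, log2 change 3.65, SE 0.65, adjusted p = 0.0147), while Ntrk2, a neurotrophin receptor gene, fell (log2 change -3.86). Dmgdh, a mitochondrial enzyme of choline breakdown, stood at 42.3 and 14.9 against 1.63 and 2.34 CPM (log2 change 3.85, SE 0.44, adjusted p = 0.0018), and it passed in each fit with 1 library left out.

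Lower in the posterior section were Tfcp2l1, a transcription factor of epithelia and of pluripotent cells (7.25 and 8.91 against 43.9 and 40.8 CPM, log2 change -2.39, SE 0.28, adjusted p = 0.00209), Lpar3, a receptor of lysophosphatidic acid (6.13 and 6.64 against 26.9 and 29.9 CPM, log2 change -2.15, SE 0.23, adjusted p = 0.00138), and the tight junction gene Cldn11 (2.76 and 3.29 against 17.9 and 14.3 CPM, log2 change -2.41, SE 0.29, adjusted p = 0.0021). Each of these 3 passed in each fit with 1 library left out. The gut mesoderm factor Nkx3-2 stood at 0.0488 and 0.201 against 2.15 and 4.08 CPM (log2 change -4.63, SE 0.91, adjusted p = 0.0324). There were 4 genes past the test with no counts in either posterior library. Against a floor of 3 counts over both libraries, they were at least 102-fold lower (Ifi27l2b), 84.2-fold lower (Epyc), 16.8-fold lower (Iyd) and 13.5-fold lower (Cdh8).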
